A study of Homo sapiens with 72 samples.

Results

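TGFBR3, BMPR1A, ZNRF3, PHLPP1, PLCL2, LRCH1 and LHFPL2 are 7 genes of 174 to 288 kb whose messenger RNA was among the furthest below its untreated level 3 h and 4 h after ultraviolet (UV) light in human HEK293 cells. They were 7 of the 19324 genes in the deposited count table and 7 of the 15470 tested, so no member was lost to the filter on low counts. The genes were selected on the log2 changes from 0 h to 3 h and from 0 h to 4 h in DMSO, averaged over the 4 cell lines, among genes with a mean log2 level of at least 3 that were called lower in all 4 lines. Of the 2679 genes eligible at 3 h, ZNRF3 had the lowest mean change (-2.66) and PLCL2 (-2.29) was the last member, at rank 8, with B4GALT5 (-2.23) and SPRED2 (-2.20) just outside. Of the 2859 genes eligible at 4 h, LHFPL2 had the lowest (-2.60) and LRCH1 (-2.35) was the last, also at rank 8, with FNDC3B (-2.30) and MLLT3 (-2.25) just outside. The depth of the early drop is therefore a description here and carries no test.

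The cells were HEK293 Flp In T-REx, an embryonic kidney line used for engineered expression, as unedited WT and as 3 knockout lines: CSB_KO, STK19_KO1 and STK19_KO2. CSB, encoded by ERCC6, and STK19 both act in transcription-coupled repair, in which an RNA polymerase stalled at a DNA lesion recruits the excision machinery. Each line was sampled untreated (0 h), at 3 h after UV with no further treatment, and at 4 h and 20 h with either DMSO, the solvent, or ATRi, the ATR kinase inhibitor VE-821 at 3 µM. All groups other than 0 h were irradiated, and inhibitor or solvent was added after 3 h of recovery. This gave 24 groups of 3 libraries, 72 in all. The UV dose was not given in the sources used here. The study's design text counts time from irradiation and the sample descriptions from the addition of solvent or inhibitor, so the times are used as labels. No irradiated time has an unirradiated partner, and time in culture and UV cannot be told apart. CSB_KO is 1 knockout line, so its values cannot be told apart from those of that line's own history.

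All 7 genes encode parts of signalling or membrane systems. TGFBR3 is betaglycan, a co-receptor that presents TGF-beta ligands to the signalling receptors, and BMPR1A is a type I receptor kinase for bone morphogenetic proteins that phosphorylates SMAD proteins. ZNRF3 is a transmembrane ubiquitin ligase that removes Frizzled receptors from the cell surface and so restrains Wnt signalling. PHLPP1 is a phosphatase that dephosphorylates AKT. PLCL2 is related to phospholipase C but lacks its catalytic activity, LRCH1 is a cytoplasmic protein with leucine-rich repeats, and LHFPL2 is a tetraspan membrane protein. As general background, UV lesions on the transcribed strand stop RNA polymerase, and a long gene offers more places for a lesion than a short one.

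In the GRCh38 coordinates of the deposited table the genes lie on 7 chromosomes. TGFBR3 (ENSG00000069702) is at chr1:91680343-91906335 on the minus strand, BMPR1A (ENSG00000107779) at chr10:86756596-86932825, and ZNRF3 (ENSG00000183579) at chr22:28883572-29057488. PHLPP1 (ENSG00000081913) is at chr18:62715541-62980433, PLCL2 (ENSG00000154822) at chr3:16802651-17090604, LRCH1 (ENSG00000136141) at chr13:46553168-46753040, and LHFPL2 (ENSG00000145685) at chr5:78485215-78770021 on the minus strand. Their principal annotated transcripts have 5 to 19 exons, and exons make up 2.02% to 6.39% of the transcript's span. Gene spans in this text are the outer bounds of the gene. The principal transcript is shorter in LHFPL2 (164 kb of 285 kb), PLCL2 (206 kb of 288 kb) and TGFBR3 (206 kb of 226 kb), and about the same in the others. The first intron had a median of 96.5 kb, against 27.9 kb in 1195 tested genes of 150 to 300 kb and 3.58 kb in all 15164 tested genes with a transcript. It was the longest intron in BMPR1A (81.9 kb), ZNRF3 (103 kb), PHLPP1 (113 kb), PLCL2 (124 kb) and LRCH1 (96.5 kb). In TGFBR3 (64.0 kb) and LHFPL2 (67.4 kb) the longest was intron 2. BMPR1A is known to have processed pseudogenes, to which reads could be assigned, and PLCL2 exons share 65 bases with MIR3714 and 40 bases with the antisense PLCL2-AS1.

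The promoters are shown as a description of the members' start regions, which differ in base composition. Any part of these sequences in the changes was not tested. RefSeq start sites (GRCh38.p14) were matched by symbol for 6 of the 7 genes, all except ZNRF3. The 250 bases upstream of the first start had a median GC content of 72.4% (47.2% to 83.2%), against 58.0% over 35116 promoters, and a median of 30 CpG dinucleotides against 11. BMPR1A had the lowest GC content, 47.2%, and LHFPL2 the highest, 83.2%, with TGFBR3 at 73.6%. The RefSeq start used for BMPR1A, at 86755763, lies upstream of the gene's start in the deposited table, 86756596. Its window is therefore outside the counted gene, and a window at the deposited start was not examined. The starts used for TGFBR3 (91886151) and LHFPL2 (78648772) lie inside the deposited gene bounds. The 150 bases upstream of the start of these 3 genes follow, 5′ to 3′ on the gene's strand with each CpG in capitals, for TGFBR3 at chr1:91886152-91886301 (minus strand, 19 CpG), BMPR1A at chr10:86755613-86755762 (plus strand, 7 CpG) and LHFPL2 at chr5:78648773-78648922 (minus strand, 21 CpG).
TGFBR3: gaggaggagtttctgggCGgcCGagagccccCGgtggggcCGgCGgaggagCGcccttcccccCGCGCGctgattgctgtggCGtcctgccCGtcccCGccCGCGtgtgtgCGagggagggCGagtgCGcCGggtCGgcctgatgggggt
BMPR1A: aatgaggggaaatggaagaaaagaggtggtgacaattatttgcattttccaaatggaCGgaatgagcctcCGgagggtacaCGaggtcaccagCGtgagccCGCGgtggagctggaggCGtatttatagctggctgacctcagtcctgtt
LHFPL2: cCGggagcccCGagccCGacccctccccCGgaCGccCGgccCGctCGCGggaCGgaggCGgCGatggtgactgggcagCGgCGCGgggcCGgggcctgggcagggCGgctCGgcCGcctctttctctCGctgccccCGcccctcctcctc
In 250 bases on either strand, the GC box GGGCGG was found in 4 of the 6 promoters (42.6% of all 35116) and TATAAA in 1, that of BMPR1A (10.7%), there as its reverse complement. CCAAT (32.0% of all), CACGTG (6.34%), TGACTCA (4.20%), TGACGTCA (1.65%) and GTCTAGAC (0.182%) were found in 0 of the 6. A match is only a match of letters within this window.

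The libraries held 36.5 to 213 M counts, with a median of 56.3 M. At that depth a member had at least 121 counts in every library (121 in LHFPL2 in 1 CSB_KO library at 4 h with inhibitor). Levels are given in CPM after TMM scaling, which expresses a gene's counts as a share of the library. These levels, and the percents of 0 h, are relative to other genes, so a change in all messenger RNA together would not show. Neither fewer cells nor less RNA per cell can be read from them. Of 10 HEK293 marker genes, 9 were above 1 CPM in untreated WT cells, with PAX8 at 0.0324 CPM, and their summed level ran from 419 to 851 CPM over all libraries. Markers of other cells were near 0 except for 1 of 6 blood, 1 of 6 fibroblast and 1 of 4 kidney tubule genes above 1 CPM. ERCC6, over 18 libraries a line, ran from 6.40 to 15.6 CPM in CSB_KO and from 13.5 to 44.8 CPM in WT, lower in CSB_KO but overlapping. STK19 RNA in STK19_KO1 (16.8 to 44.2 CPM) and STK19_KO2 (16.4 to 45.6 CPM) overlapped WT (17.8 to 53.8 CPM) throughout, so it does not check those labels. Replicates differed beyond sampling noise, and 5 libraries stood apart from their nearest replicate: WT replicate 1 at 0 h, 3 h and 4 h DMSO, STK19_KO1 replicate 3 at 3 h and STK19_KO1 replicate 1 at 4 h with inhibitor. The members' comparisons were also fitted without them, and values from that fit are given beside several of the results. Percents of 0 h, correlations, span classes, close relatives and pathway lists are given only with them. Nothing in the labels says that the replicates are separate cultures, so p-values measure the spread between these samples only, which may be technical.

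At 3 h every member stood at 12.1% to 25.9% of its own line's untreated level. TGFBR3 in WT was at 34.1, 29.8 and 31.0 CPM untreated and at 5.16, 4.56 and 4.62 CPM at 3 h. BMPR1A went from 57.7, 50.1 and 49.7 CPM to 11.05, 9.34 and 8.24 CPM. ZNRF3, the lowest of the 7 relative to its start in WT, went from 31.7, 35.4 and 37.2 CPM to 4.17, 4.67 and 5.54 CPM, or 13.8%. Every untreated library of each gene was above every library at 3 h, in all 4 lines. The choice of genes by the depth of this drop favoured that separation, and its share over all tested genes was not counted. The log2 changes in WT ran from -2.86 ± 0.11 (SE) in ZNRF3 to -2.41 ± 0.08 in PHLPP1. The members' median was -2.54 in WT, and CSB_KO gave -2.65, STK19_KO1 -2.28 and STK19_KO2 -2.16. In the same order, the medians over all tested genes were 0.06, 0.06, 0.03 and 0.05, and those over 1230 genes of 150 to 300 kb -0.43, -0.30, -0.61 and -0.55. The rule took only genes called lower (adjusted p under 0.05 in edgeR's quasi-likelihood test), so 7 of 7 were called lower in each line, beside 28.8% (WT), 29.3% (CSB_KO), 30.6% (STK19_KO1) and 28.5% (STK19_KO2) of all tested genes. The WT median was -2.62 and that of STK19_KO1 -2.26 once the 5 libraries that stood apart were left out.

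At 4 h in DMSO the members stood at 11.04% to 25.2% of the untreated level. PLCL2 in WT was at 29.8, 28.9 and 29.5 CPM untreated, at 6.23, 5.01 and 5.29 CPM at 3 h and at 3.23, 3.30 and 3.22 CPM at 4 h, 11.04% of its start. LRCH1 went from 20.9, 20.4 and 21.7 CPM through 3.99, 3.74 and 3.13 CPM to 4.32, 2.96 and 3.72 CPM. The 3 PLCL2 libraries at 4 h were all below the 3 at 3 h, whereas those of LRCH1 overlapped. LHFPL2 in WT stood at 35.8, 33.7 and 33.9 CPM, then at 5.07, 5.67 and 5.05 CPM and at 4.39, 3.87 and 4.23 CPM, with no overlap between the 3 times. Relative to 0 h the median log2 change was -2.88 (WT), -2.72 (CSB_KO), -2.12 (STK19_KO1) and -2.25 (STK19_KO2). All 7 were again called lower in each line as the rule required, against 31.3%, 30.2%, 30.0% and 29.8% of tested genes in that order. Between 3 h and 4 h the WT log2 differences ran from -0.76 ± 0.09 in PLCL2 to 0.09 ± 0.11 in ZNRF3, and those of the knockout lines from -0.27 ± 0.10 (PLCL2 in CSB_KO) to 0.41 ± 0.12 (ZNRF3 in STK19_KO1). Without the 5 libraries ZNRF3 (-0.032 instead of 0.09) and LRCH1 (-0.031 instead of 0.02) in WT, and PHLPP1 (-0.065 instead of 0.02) and PLCL2 (-0.082 instead of 0.01) in STK19_KO1, changed sign in this comparison, which is a description only. In the same fit the WT median against 0 h was -2.88.

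**Figure D1:**
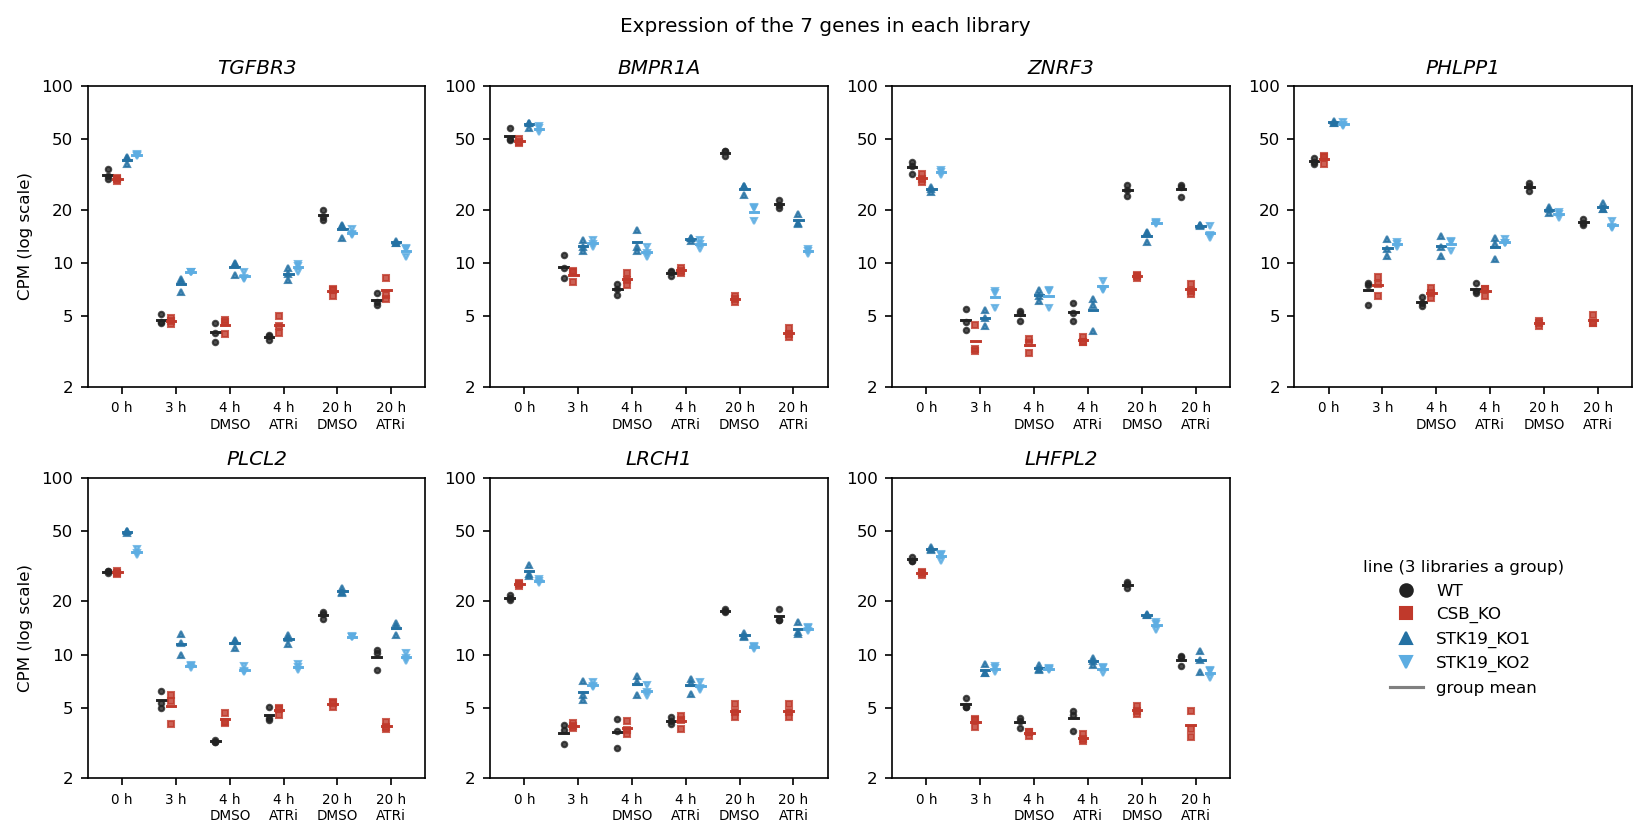
Level of each of the 7 genes in every library (CPM, log axis) against labelled time and treatment, 1 panel a gene. Each point is 1 of 3 libraries a group, colours and shapes are the lines and short bars are group means. All points at 3 h and 4 h lie below the untreated points, which the choice of genes favoured. At 20 h in DMSO WT and CSB_KO points separate in every panel.

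In WT cells the 7 genes had come back to between 57.1% (PLCL2) and 84.1% (LRCH1) of the untreated level at 20 h in DMSO, with a median of 71.99%, from 13.6% at 4 h. TGFBR3 reached 19.9, 17.5 and 18.3 CPM (18.6 ± 1.26, SD, n = 3), against 31.6 ± 2.19 untreated. The 3 libraries were above all those at 4 h and below all the untreated ones. BMPR1A reached 43.1, 42.7 and 40.3 CPM and ZNRF3 26.0, 27.4 and 23.9 CPM. Both also fell short of every untreated library. PHLPP1, at 37.4, 36.2 and 39.3 CPM untreated, reached 25.7, 28.2 and 27.2 CPM, and LRCH1, the member nearest its start, 18.1, 17.6 and 17.3 CPM. Neither gene's 20 h libraries overlapped its untreated ones. Compared with 4 h DMSO the WT log2 differences were 2.16 ± 0.09 (PHLPP1) to 2.57 ± 0.08 (LHFPL2), given as a description because the 4 h libraries entered the choice of genes.

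The remaining deficit in WT was tested between 20 h in DMSO and 0 h. The 20 h libraries had no part in choosing the genes, whereas the 0 h libraries did. All 7 were called lower, where 25.4% of tested genes were, with log2 changes from -0.81 ± 0.08 in PLCL2 (adjusted p = 8.02e-14) and -0.77 ± 0.08 in TGFBR3 to -0.25 ± 0.08 in LRCH1 (adjusted p = 0.00867). The LRCH1 call was lost without replicate 3 (adjusted p = 0.0972). The members' median, -0.48, stood beside 0.05 over all tested genes and -0.46 over genes of 150 to 300 kb, so at this time the members in WT were about where genes of like span were. Of the genes of 150 to 300 kb 65.0% were called lower. Genes over 300 kb had a WT median of -1.62. Without the 5 libraries the members' median was -0.48 and 7 were called lower.

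In CSB_KO the genes did not come back in this way. BMPR1A was at 47.7, 48.5 and 50.4 CPM untreated, at 8.79, 7.51 and 8.07 CPM at 4 h in DMSO and at 6.54, 6.05 and 6.24 CPM at 20 h. PHLPP1 was at 39.5, 40.2 and 36.1 CPM, 6.80, 6.39 and 7.22 CPM and 4.43, 4.72 and 4.56 CPM. In both genes every 20 h library was below every 4 h library. ZNRF3 was the member with the highest 20 h value relative to its start, at 8.27, 8.43 and 8.51 CPM, or 27.9%, above its 3.10, 3.71 and 3.55 CPM at 4 h. TGFBR3 was at 7.08, 7.18 and 6.49 CPM, LHFPL2 at 5.14, 4.62 and 4.83 CPM, PLCL2 at 5.34, 5.06 and 5.42 CPM and LRCH1 at 5.23, 4.46 and 4.71 CPM. These 4 genes were all above their own 4 h libraries, and below every WT library at 20 h by a wide margin. The median over the 7 was 18.1% of 0 h at 20 h and 15.05% at 4 h. As a description, the log2 difference between 20 h and 4 h in DMSO was positive in 5 genes (0.29 to 1.297) and negative in BMPR1A (-0.38 ± 0.09) and PHLPP1 (-0.57 ± 0.10).

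All 7 genes were called lower at 20 h in DMSO than at 0 h in CSB_KO, where 40.5% of tested genes were, with log2 changes from -3.07 ± 0.09 in PHLPP1 (adjusted p = 9.86e-37) to -1.84 ± 0.10 in ZNRF3 (adjusted p = 1.52e-23). The members' median was -2.47, beside -0.01 over all tested genes, -1.32 over genes of 150 to 300 kb and -1.45 over genes above 300 kb. Of the genes of 150 to 300 kb 79.8% were called lower. As in WT, the 0 h libraries had entered the choice of genes. Between lines at 20 h in DMSO, in libraries that had no part in the choice, all 7 were lower in CSB_KO than in WT, where 39.8% of tested genes were called lower. The differences were -2.75 ± 0.09 in BMPR1A (adjusted p = 3.18e-35), -2.56 ± 0.09 in PHLPP1, -2.35 ± 0.08 in LHFPL2, -1.89 ± 0.09 in LRCH1, -1.68 ± 0.09 in PLCL2, -1.61 ± 0.10 in ZNRF3 and -1.42 ± 0.08 in TGFBR3. Their median, -1.89, stood beside -0.71 over genes of 150 to 300 kb. The change from 0 h to 20 h itself was lower in CSB_KO than in WT in 7 of 7 genes, against 36.3% of tested genes, by -1.33 ± 0.11 (TGFBR3) to -2.64 ± 0.11 (BMPR1A). The median difference was -2.10 over the members and -0.77 over genes of 150 to 300 kb. This test used the 0 h libraries, which had entered the choice of genes. With library size alone in place of TMM scaling, the median of all genes moved by -0.36 in the comparison of lines at 20 h and by -0.37 in the comparison of changes. No member reversed under it.

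**Figure D2:**
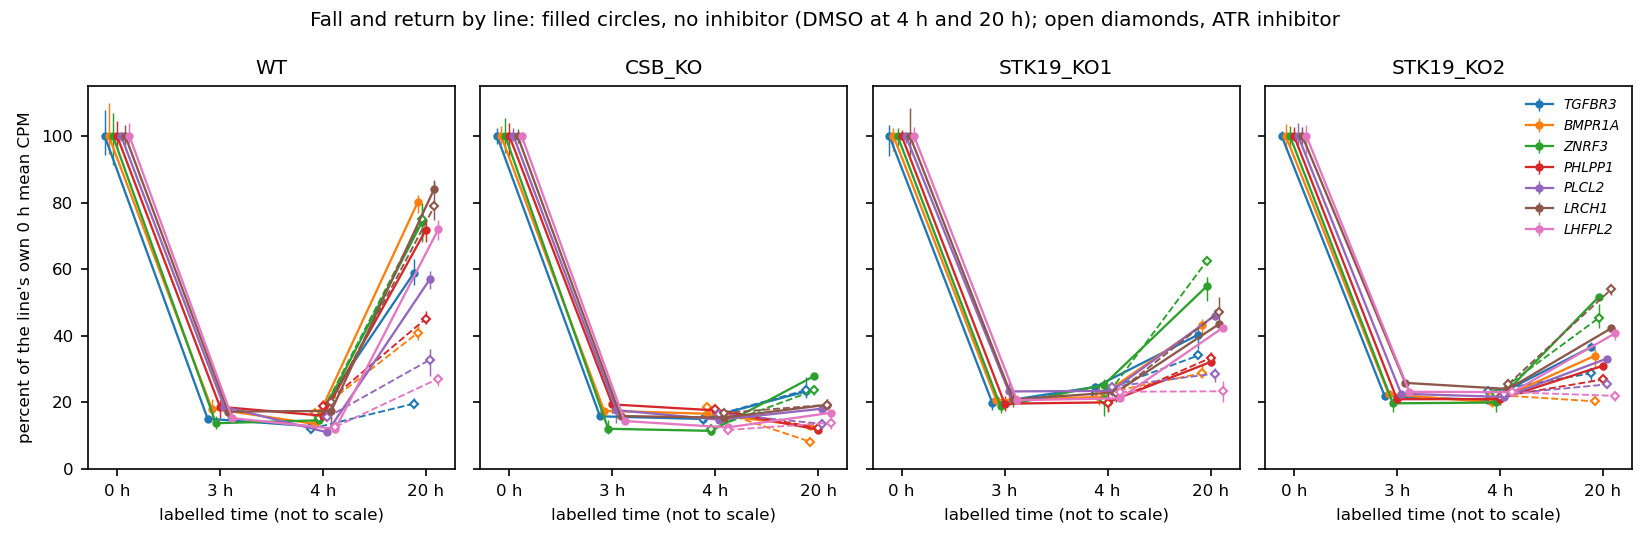
Mean level of each gene as a percent of its own line's untreated mean, by line, against labelled time (not to scale). Filled circles and solid lines are untreated, 3 h and DMSO groups, open diamonds and dashed lines are inhibitor groups, and bars span the lowest to the highest of 3 libraries; at 20 h in DMSO the medians are 71.99% (WT), 18.1% (CSB_KO), 43.2% (STK19_KO1) and 36.5% (STK19_KO2).

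The STK19 knockouts lay between WT and CSB_KO at 20 h in DMSO. The median over the genes was 43.2% of 0 h in STK19_KO1 (32.1% to 54.8%) and 36.5% in STK19_KO2 (31.0% to 51.7%), with PHLPP1 the lowest and ZNRF3 the highest of the 7 in both lines. PHLPP1 was at 61.8, 61.7 and 63.3 CPM untreated in STK19_KO1 and 20.1, 20.7 and 19.2 CPM at 20 h. In STK19_KO2 it was at 60.1, 59.8 and 62.4 CPM and 19.0, 19.5 and 18.1 CPM. The untreated and 20 h libraries were far apart in both lines, and the 20 h libraries were below those of WT. ZNRF3 went from 25.3, 26.2 and 26.7 CPM to 14.7, 15.01 and 13.2 CPM in STK19_KO1 and from 31.6, 33.6 and 32.7 CPM to 16.6, 17.1 and 16.9 CPM in STK19_KO2, again without overlap.

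Against 0 h all 7 genes were called lower at 20 h in both STK19 lines, where 37.0% (STK19_KO1) and 37.8% (STK19_KO2) of tested genes were. The log2 changes ran from -1.64 ± 0.08 (PHLPP1) to -0.87 ± 0.10 (ZNRF3) in STK19_KO1 and from -1.69 ± 0.08 to -0.95 ± 0.10 in the same genes in STK19_KO2. The members' medians, -1.21 and -1.45, stood beside -1.001 and -1.14 over genes of 150 to 300 kb. Of that span class 78.1% (STK19_KO1) and 81.1% (STK19_KO2) were called lower. Here too the 0 h libraries had entered the choice of genes. Compared with WT at 20 h in DMSO, 6 genes were lower in STK19_KO1 (36.6% of tested genes were) and 7 in STK19_KO2 (37.5%). The members' medians against WT were -0.46 and -0.61, beside -0.40 and -0.49 over genes of 150 to 300 kb. BMPR1A (-0.68 ± 0.08 and -1.11 ± 0.08) and ZNRF3 (-0.85 ± 0.10 and -0.61 ± 0.10) differed most from WT in STK19_KO1, and BMPR1A and LHFPL2 (-0.76 ± 0.07) in STK19_KO2. PLCL2 was the exception, higher than WT in STK19_KO1 by 0.44 ± 0.08 (adjusted p = 8.20e-07; 32.4% of tested genes were called higher). The change from 0 h to 20 h, averaged over both STK19 lines, was lower than in WT in 7 of 7 genes, against 32.7% of tested genes, from -0.47 ± 0.12 in ZNRF3 to -1.19 ± 0.10 in PHLPP1. The median difference was -0.79 over the members and -0.52 over genes of 150 to 300 kb. This test also used the 0 h libraries. The TGFBR3 call against WT in STK19_KO1 was lost without replicate 3 (adjusted p = 0.0874). The counts of members given here, and those for CSB_KO at 20 h in DMSO, were the same without the 5 libraries.

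PLCL2 also set the 2 STK19 lines apart. At 20 h in DMSO it was at 22.2, 22.4 and 23.8 CPM in STK19_KO1, 12.5, 12.5 and 12.7 CPM in STK19_KO2 and 15.9, 17.5 and 17.0 CPM in WT. The 3 lines did not overlap, with WT in the middle. STK19_KO1 exceeded STK19_KO2 by 0.86 ± 0.08 (adjusted p = 3.21e-14). Of the other members BMPR1A (0.43), LRCH1 (0.23) and LHFPL2 (0.20) were also higher in STK19_KO1 and ZNRF3 (-0.24) was lower, so 5 of 7 differed, where 40.0% of tested genes did. TGFBR3 (0.06, 95% interval -0.09 to 0.22) and PHLPP1 (0.08, -0.07 to 0.24) did not pass the test. The calls of LRCH1 and LHFPL2 were lost whichever replicate number was left out, leaving 2 higher, and that of ZNRF3 was lost without replicate 2 (adjusted p = 0.190) or replicate 3 (0.243). BMPR1A and PLCL2 were then the only 2 of 7 called.

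The lines also differed before UV, in several genes in the opposite direction to 20 h. The 0 h libraries of every line had entered the choice of genes. PHLPP1 was at 37.6 ± 1.54 CPM (SD, n = 3) in WT and 62.3 ± 0.915 CPM in STK19_KO1, and PLCL2 at 29.4 ± 0.434 and 49.5 ± 0.890 CPM. At 0 h STK19_KO1 was higher than WT in 6 genes, led by PLCL2 (0.75 ± 0.07) and PHLPP1 (0.73 ± 0.08), and lower in ZNRF3 (-0.42 ± 0.10), where 48.7% of tested genes differed. Of the 6 higher genes PLCL2 was also higher than WT at 20 h in DMSO, and the other 5 were lower there. STK19_KO2 was higher in PHLPP1 (0.69 ± 0.08), PLCL2 (0.37 ± 0.07), TGFBR3 (0.36 ± 0.07) and LRCH1 (0.31 ± 0.08), where 47.3% differed. CSB_KO differed less from WT before UV, with LRCH1 higher (0.25 ± 0.08) and LHFPL2 lower (-0.26 ± 0.07), where 34.8% of tested genes differed. With 1 replicate number left out of every group, STK19_KO1 had 3 to 6 higher genes (3 without replicate 3, with BMPR1A, LHFPL2 and TGFBR3 lost) and CSB_KO 0 to 1 higher (0 without replicate 2) and 1 to 2 lower (2 without replicate 1). Library size alone, or a fit of the groups compared only, left 4 higher in STK19_KO1, without BMPR1A and LHFPL2. Without the 5 libraries CSB_KO had 2 lower, ZNRF3 being the second, and STK19_KO2 had 5 higher in place of 4, with BMPR1A (0.21) added.

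At 4 h few of the 7 genes passed the test for an effect of the inhibitor. In WT PLCL2 was at 5.04, 4.29 and 4.38 CPM with ATRi against 3.23, 3.30 and 3.22 CPM with DMSO, all higher, a log2 difference of 0.48 ± 0.09 (adjusted p = 0.000947). BMPR1A was at 8.47, 8.90 and 9.03 CPM against 7.59, 6.62 and 7.15 CPM, also without overlap, a difference of 0.31 ± 0.09 (adjusted p = 0.0347). These 2 of 7 were the only members called in WT, where 2.66% of tested genes were called in either direction, and the DMSO libraries had entered the choice of genes. Both calls were lost without replicate 2, without replicate 3, and in a fit of these 2 groups alone, in which only 2 genes of all tested were called. When the 5 libraries were left out, 3 members were higher in WT, LRCH1 being the third (0.32, adjusted p = 0.0272). In CSB_KO 0 of 7 members were called by edgeR (2.97% of tested genes were), with 0 at an unadjusted p under 0.05. In STK19_KO1 0 were called (0.905% of tested genes) with 1 at an unadjusted p under 0.05, ZNRF3, and in STK19_KO2 0 (0.220%) with 1, TGFBR3. DESeq2 likewise called 0 members in these 3 lines. Without the 5 libraries the lowest member difference in STK19_KO1 was -0.13 in place of -0.30.

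At 20 h the inhibitor divided the 7 genes in WT. TGFBR3 was at 5.80, 6.04 and 6.76 CPM with ATRi against 19.9, 17.5 and 18.3 CPM with DMSO, and LHFPL2 at 8.58, 9.76 and 9.71 CPM against 25.8, 24.9 and 23.7 CPM. Both were below every DMSO library, and TGFBR3 with inhibitor stood at 19.6% of its untreated level. ZNRF3, by contrast, was at 23.7, 26.9 and 27.8 CPM against 26.0, 27.4 and 23.9 CPM, and LRCH1 at 15.7, 18.2 and 15.8 CPM against 18.1, 17.6 and 17.3 CPM. In these 2 genes the groups overlapped. None of these libraries had a part in the choice of genes.

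With inhibitor in WT 5 of the 7 were called lower, where 33.7% of tested genes were. The log2 differences were -1.58 ± 0.08 in TGFBR3 (adjusted p = 5.25e-24), -1.40 ± 0.07 in LHFPL2 (2.97e-24), -0.97 ± 0.08 in BMPR1A (1.07e-16), -0.80 ± 0.08 in PLCL2 (3.16e-13) and -0.67 ± 0.08 in PHLPP1 (1.21e-10). ZNRF3 (0.02, 95% interval -0.17 to 0.22, adjusted p = 0.841) and LRCH1 (-0.09, -0.26 to 0.08, adjusted p = 0.353) did not pass the test. The upper 95% bound nearest to 0 among the 5 was that of PHLPP1, -0.51, which lies below the lower bounds of ZNRF3 and LRCH1. The members' median was -0.80, beside -0.03 over all tested genes and -0.30 over genes of 150 to 300 kb. Of the genes of 150 to 300 kb 52.0% were called lower.

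The knockout lines had between 3 and 5 lower calls with inhibitor at 20 h. Of the genes of 150 to 300 kb 11.1% (CSB_KO), 28.5% (STK19_KO1) and 26.2% (STK19_KO2) were called lower. CSB_KO had 3 lower calls, where 17.5% of tested genes were lower: BMPR1A (-0.65 ± 0.10), PLCL2 (-0.40 ± 0.09) and LHFPL2 (-0.30 ± 0.09). BMPR1A there was at 4.29, 3.95 and 3.82 CPM with inhibitor against 6.54, 6.05 and 6.24 CPM, the lowest member relative to its start in any group, 8.22%. TGFBR3 in CSB_KO was at 8.23, 6.58 and 6.29 CPM with inhibitor against 7.08, 7.18 and 6.49 CPM, overlapping, with a difference of 0.01 (95% interval -0.17 to 0.18). STK19_KO1 had 4 lower calls (30.1% of tested genes), led by LHFPL2 (-0.86 ± 0.07) and PLCL2 (-0.68 ± 0.08). STK19_KO2 had 5 (27.7%), led by LHFPL2 (-0.89 ± 0.07) and BMPR1A (-0.74 ± 0.08). In STK19_KO2 LRCH1 was higher with inhibitor, at 13.6, 14.1 and 14.4 CPM against 11.1, 10.8 and 11.02 CPM, without overlap, a difference of 0.35 ± 0.09 (adjusted p = 0.000349), where 30.5% of tested genes were called higher. BMPR1A, PLCL2 and LHFPL2 were called lower in all 4 lines, though LHFPL2 in CSB_KO (-0.29 and -0.21) lost its call without replicate 2 or replicate 3, which left 2 lower there, as did a fit of the groups compared only. PHLPP1 in STK19_KO2 lost its call without replicate 2 or replicate 3, with DESeq2 size factors (-0.17) and in DESeq2's own test, and TGFBR3 in STK19_KO1 without replicate 2.

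The difference in the inhibitor's effect between lines was tested directly. CSB_KO minus WT was called higher, a smaller lowering in CSB_KO, in 5 of 7 genes, where 24.7% of tested genes were called higher: TGFBR3 1.58 ± 0.12, LHFPL2 1.1003 ± 0.11, PHLPP1 0.71 ± 0.13, PLCL2 0.40 ± 0.12 and BMPR1A 0.32 ± 0.12. The mean of the STK19 lines minus WT was called higher in 6 of 7, where 20.7% were: TGFBR3 1.28 ± 0.10, PHLPP1 0.60 ± 0.10, LHFPL2 0.52 ± 0.09, LRCH1 0.33 ± 0.10, BMPR1A 0.30 ± 0.09 and PLCL2 0.27 ± 0.10. The members' median was 0.40 for CSB_KO minus WT and 0.33 for the STK19 mean minus WT. Over all tested genes the medians were 0.02 and 0.02, and over genes of like span 0.32 and 0.33. The members as a set were therefore close to genes of like span in both tests. ZNRF3 passed in neither test (-0.28 ± 0.15 and -0.03 ± 0.12). The STK19 mean joins 2 lines in which ZNRF3 went opposite ways. Without the 5 libraries it was called higher with inhibitor in STK19_KO1 (0.19, adjusted p = 0.0287) and lower in STK19_KO2 (-0.19, adjusted p = 0.0325). Neither call was made with all libraries in the main fit. Without replicate 2 the CSB_KO count was 3, with BMPR1A and PLCL2 lost, and BMPR1A was also lost without replicate 1. The STK19 count was 4 or 5 whichever replicate number was left out: BMPR1A and LRCH1 were lost without replicate 3, LRCH1 without replicate 1 and PLCL2 without replicate 2 (0.13, adjusted p = 0.498). PLCL2 was also lost with no filter on low counts (adjusted p = 0.0614). Both tests share the WT libraries, and in CSB_KO the DMSO level from which the inhibitor could lower a gene was itself low, 11.8% to 27.9% of 0 h.

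**Figure D3:**
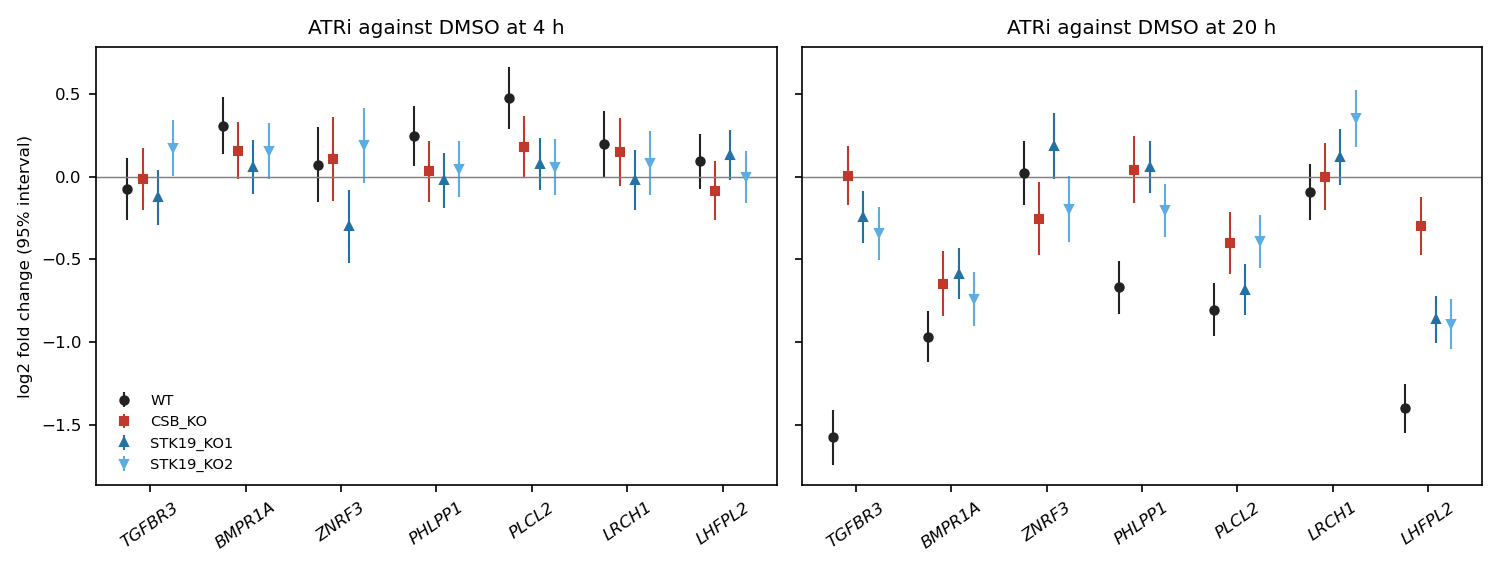
Log2 fold change between ATRi and DMSO for each gene at 4 h (left) and 20 h (right), with 95% intervals, by line. At 20 h TGFBR3 in WT (-1.58) stands apart from the other lines, LHFPL2, BMPR1A and PLCL2 are below 0 in all 4 lines, and ZNRF3 and LRCH1 in WT lie on 0.

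The course under inhibitor between 4 h and 20 h was measured in libraries that had no part in choosing the genes. In WT 7 of 7 genes were called higher at 20 h, where 35.2% of tested genes were, from 0.69 ± 0.09 in TGFBR3 to 2.28 ± 0.11 in ZNRF3. TGFBR3 went from 3.68, 3.93 and 3.86 CPM to 5.80, 6.04 and 6.76 CPM, and ZNRF3 from 4.73, 5.91 and 5.24 CPM to 23.7, 26.9 and 27.8 CPM. The 20 h libraries were above those at 4 h for both, by far more in ZNRF3. In CSB_KO 3 were higher (34.6% of tested genes) and 3 lower (37.9%): TGFBR3 (0.65 ± 0.09), ZNRF3 (0.94 ± 0.12) and LHFPL2 (0.21 ± 0.09) rose, and BMPR1A (-1.19 ± 0.09), PHLPP1 (-0.56 ± 0.09) and PLCL2 (-0.29 ± 0.09) fell. STK19_KO1 had 6 higher (36.3%), all but LHFPL2, and STK19_KO2 had 4 (35.2%), namely LRCH1 (1.08 ± 0.09), ZNRF3 (1.00 ± 0.11), PHLPP1 (0.31 ± 0.08) and TGFBR3 (0.30 ± 0.08). ZNRF3 and TGFBR3 thus rose under inhibitor in all 4 lines. In CSB_KO LHFPL2 lost its call without replicate 1 (0.073) or replicate 2, with library size alone (0.062, adjusted p = 0.551) and in a fit of the groups compared only. PLCL2 there lost its call without replicate 3, with DESeq2 size factors and in DESeq2's own test. Without the 5 libraries STK19_KO1 had 6 higher.

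Across the 24 group means, each centred on its line's 0 h value, the 7 genes moved closely together. Pearson's r over the 21 pairs ran from 0.855 to 0.984 with a median of 0.923. The groups share lines, libraries and scaling, and the early drop that chose the genes is in these values. Among the other tested genes, those most like the members' mean course over the same 24 group means were NR3C1, the glucocorticoid receptor (r = 0.986), USP6NL (0.986), PIAS1 (0.985), TCF7L2, a Wnt-pathway transcription factor (0.984), and TNFAIP8 (0.978). Their spans were 131 to 217 kb. In WT NR3C1 had a log2 change of -2.00 at 3 h and -0.75 with inhibitor at 20 h, and TCF7L2 of -1.99 and -0.91.

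Close relatives of the 7 genes, and partner receptors, gave a mixed picture in WT. ENG (39.6 kb), the paralog of TGFBR3, was near 0, at 0.0402 CPM untreated. TGFBR2 (87.5 kb), the type II TGF-beta receptor, had mean levels of 14.3 CPM untreated, 2.55 at 3 h, 11.7 at 20 h in DMSO and 10.4 with inhibitor. BMPR1B, at 400 kb the longer relative of BMPR1A, had 9.99, 3.18, 1.81 and 1.16 CPM, and BMPR2 (191 kb), their type II partner, had 59.9, 30.8, 37.1 and 20.6 CPM. RNF43, the ligase related to ZNRF3 and at 63.9 kb much shorter, had 38.9, 11.3, 32.8 and 16.0 CPM. Its inhibitor group mean was below its DMSO mean, where the ZNRF3 groups overlapped. PHLPP2 (86.9 kb) had 27.9, 12.01, 25.6 and 34.6 CPM, higher with inhibitor (0.44 ± 0.07) where PHLPP1 was lower. LRCH4 (12.1 kb) had 27.0, 54.0, 40.3 and 104 CPM, LRCH2 (123 kb) 20.3, 20.8, 18.7 and 23.8 CPM and LRCH3 (97.2 kb) 36.5, 22.6, 37.4 and 38.0 CPM. LHFPL6 (394 kb) had 17.9, 10.7, 8.97 and 6.18 CPM, and PLCL1 (768 kb), the relative of PLCL2, had 1.24, 0.378, 0.189 and 0.0980 CPM.

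The other genes of the same pathways, leaving out the 7 members, were read from lists of receptors and signalling parts. At 20 h in DMSO against 0 h in WT, 5 of 15 TGF-beta and BMP receptors were higher and 6 lower (median log2 0.00), beside 30.0% and 25.4% of all tested genes. BAMBI, a decoy receptor, was higher (0.76) and BMPR1B lower (-2.45). In CSB_KO the count was 4 higher and 10 lower (median -0.49), where 38.3% of all tested genes were called higher and 40.5% lower. Of 8 SMADs, which carry the signal to the nucleus, 3 were higher and 3 lower in WT, with the inhibitory SMAD7 at 0.73 and SMAD6 at -0.66, and 1 higher and 6 lower in CSB_KO (median -1.17). The Wnt receptors and their turnover genes gave 4 higher and 5 lower of 17 in WT (FZD7 0.60, ROR1 -2.66) and 3 and 12 in CSB_KO (median -1.02). Wnt signal transduction gave 6 and 4 of 18 in WT (DVL2 0.76, TCF7L1 -0.88) and 4 and 11 in CSB_KO. Of 21 AKT pathway genes 4 were higher and 7 lower in WT, with INPP4B, a lipid phosphatase, at -2.72, and 0 higher and 18 lower in CSB_KO (median -1.29). The phospholipase C family gave 4 and 6 of 14 in WT (PLCD4 1.49, PLCB1 -2.30) and 5 and 8 in CSB_KO.

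With inhibitor at 20 h in WT, 11 of 15 TGF-beta and BMP receptors were lower and 1 higher (median log2 -0.63), beside 33.7% and 30.2% of all tested genes. NEO1 (-1.35) and ACVRL1 (-1.41) were lower and RGMB (0.31) higher. Of the SMADs 6 of 8 were lower, led by SMAD6 (-2.12) and SMAD7 (-0.997), and SMAD4 (0.33) was higher. The Wnt receptors had 13 of 17 lower, ROR1 (-1.62) and FZD4 (-1.54) most, with FZD9 (0.60) higher. Wnt signal transduction was divided, with 5 higher and 7 lower of 18, among them NKD2 (1.02) and TCF7L1 (-1.31). The AKT list had 5 higher and 12 lower of 21 (PIK3R3 0.53, PIK3CD -1.40), and the phospholipase C family 2 and 6 of 14 (PLCD1 0.63, PLCH1 -1.64). In CSB_KO 14.1% of all tested genes were called higher with inhibitor and 17.5% lower. The counts there, higher and lower, were 1 and 6 for the TGF-beta and BMP receptors, 0 and 4 for the SMADs and 2 and 9 for the Wnt receptors. They were 0 and 4 for Wnt signal transduction, 4 and 0 for the AKT list and 2 and 0 for the phospholipase C family.

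**Figure D4:**
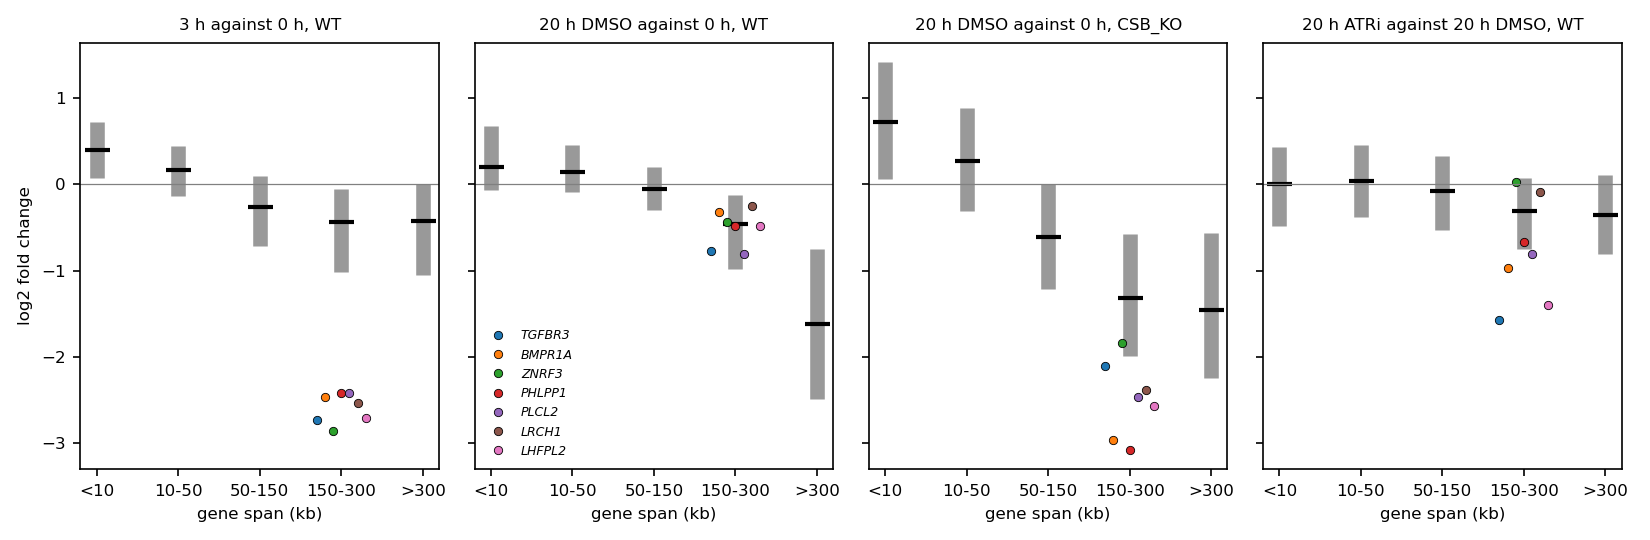
Log2 fold change against gene span in 4 comparisons. Grey bars run from the lower to the upper quartile of all tested genes in a span class, black ticks are medians and coloured points are the 7 genes, drawn over their class of 150 to 300 kb; the members lie far below their class at 3 h in WT, around its median (-0.46) at 20 h in DMSO in WT, and below its median (-1.32) at 20 h in CSB_KO.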

How the data were processed

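Polyadenylated RNA from 72 samples (RNeasy extraction, NEBNext Ultra II Directional libraries, per the labels' protocols) was aligned to GRCh38 with STAR and quantified with RSEM, per the submitters' processing notes; versions and the strand setting were not given in the sources used here. The deposited table holds expected counts (estimated counts per gene, not normalized) for 19324 genes. These were rounded to whole numbers, filtered with filterByExpr (minimum count 10, minimum total 15; 15470 kept) and TMM-scaled, and 1 edgeR quasi-likelihood model (edgeR 4.0.16, R 4.3.3) with 24 group coefficients was fitted to all 72 libraries. Adjusted p-values are Benjamini-Hochberg over all tested genes, and a gene is called at an adjusted p under 0.05. CPM values, the means and SD come from the same scaled counts, and ± beside a log2 value is its SE. Model code was tested on simulated data. Promoter sequences are RefSeq's (GRCh38.p14).

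The 7 members, the pathway lists and the named genes were chosen with earlier results of these data known. The genes named are the members, their closest paralogs, the partner receptors TGFBR2 and BMPR2, and the 5 genes most like the members' mean course. From each pathway list the text gives some of the 2 largest higher and 2 largest lower calls in WT. Another gene that ranked among the first 8 is not reported here. The alternatives were DESeq2 size factors, library size alone, DESeq2 1.42.0, no filter on low counts, a replicate block, each replicate number left out, a fit of the groups of a comparison only, and, chosen after seeing the data, leaving out the 5 libraries whose counts differed most from their nearest replicate. Library sizes of 36.5 to 213 M counts set the precision.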

Additional observations from a re-analysis of the deposited data

Results flagged for a closer look

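The change from 0 h to 20 h in DMSO was compared between CSB_KO and WT. The test was of the difference itself (an interaction term in edgeR), and the 0 h libraries had entered the choice of genes. It called 36.3% of all tested genes lower in CSB_KO. The median difference was -2.10 over the members and -0.77 over genes of like span. The change differed between CSB_KO and WT in all 7 genes. It was lower in CSB_KO by a log2 difference of -2.64 in BMPR1A, -2.60 in PHLPP1, -2.13 in LRCH1, -2.10 in LHFPL2, -1.66 in PLCL2, -1.40 in ZNRF3 and -1.33 in TGFBR3. The receptor kinase BMPR1A and the phosphatase PHLPP1 thus had differences over 1 log2 unit larger than those of the co-receptor TGFBR3 and the ligase ZNRF3. For the mean of the STK19 knockouts the same difference from WT was -1.19 in PHLPP1, -1.06 in BMPR1A and -0.97 in LRCH1. It was -0.79 in LHFPL2, -0.61 in TGFBR3, -0.55 in PLCL2 and -0.47 in ZNRF3. Of all tested genes 32.7% were called lower there. The median was -0.79 over the members and -0.52 over genes of like span. The 0 h libraries entered this test too.

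The effect of ATRi at 20 h also differed between lines. The members' median difference was 0.40 for CSB_KO minus WT and 0.33 for the STK19 knockouts minus WT. Genes of like span had medians of 0.32 and 0.33, so the members as a set were close to that class. CSB_KO minus WT was 1.58 in TGFBR3, 1.1003 in LHFPL2, 0.71 in PHLPP1, 0.40 in PLCL2 and 0.32 in BMPR1A. For the STK19 knockouts minus WT it was 1.28 in TGFBR3, 0.60 in PHLPP1, 0.52 in LHFPL2, 0.33 in LRCH1, 0.30 in BMPR1A and 0.27 in PLCL2. Untreated CSB_KO and WT levels of TGFBR3 did not differ in the test (-0.09), and its DMSO level at 20 h was lower in CSB_KO by -1.42. The part of that lower start in the smaller effect was not tested.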

How the results depend on the processing

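The counts of members called lower at 20 h in DMSO than at 0 h in the knockout lines, lower in CSB_KO and STK19_KO2 than in WT at 20 h, higher between 4 h and 20 h with inhibitor in WT, and in both tests of the 20 h change were the same under every alternative run. With only the groups of the comparison, the higher count at 4 h with inhibitor in WT was 0 in place of 2. One more gene, ZNRF3, passed in several comparisons. With inhibitor at 20 h in STK19_KO1 it made the higher count 1 in place of 0 with DESeq2 size factors, with the DESeq2 test, without the 5 libraries and with only the groups of the comparison. The last 2 settings also gave 2 lower genes in place of 1 in untreated CSB_KO and 1 lower in place of 0 in the CSB_KO minus WT inhibitor effect. Under both, ZNRF3 was called lower with inhibitor at 20 h in STK19_KO2 (-0.19 and -0.22), as it was with library size alone (-0.25). Library size alone made the lower count with inhibitor at 20 h in WT 6 in place of 5 (LRCH1, -0.20, adjusted p = 0.0303), the other alternatives leaving it at 5. It also made the lower count 1 in place of 0 between 4 h and 20 h with inhibitor in STK19_KO2 (BMPR1A). Without the 5 libraries the 4 h minus 3 h difference, a description, reversed to -0.032 in ZNRF3 and -0.031 in LRCH1 in WT, and to -0.065 in PHLPP1 and -0.082 in PLCL2 in STK19_KO1. No other descriptive value reversed, and neither did any tested value that was called in the main fit or in the alternative. Tested values that were not called could change sign. The lowest member difference at 4 h with inhibitor in WT went from -0.07 to 0.03 without the 5 libraries.

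With 1 replicate number left out of every group, member counts ranged from 6 to 7 lower at 20 h in DMSO against 0 h in WT, and from 0 to 2 higher at 4 h with inhibitor in WT. With inhibitor at 20 h they ranged from 2 to 4 lower in CSB_KO, 0 to 1 higher and 3 to 4 lower in STK19_KO1, and 4 to 6 lower in STK19_KO2. Between 4 h and 20 h with inhibitor they ranged from 2 to 3 higher and 2 to 3 lower in CSB_KO and 5 to 6 higher in STK19_KO1. Against WT they ranged from 0 to 1 higher and 1 to 2 lower in untreated CSB_KO, 3 to 6 higher in untreated STK19_KO1, 4 to 5 higher in untreated STK19_KO2, and 5 to 6 lower in STK19_KO1 at 20 h. STK19_KO1 against STK19_KO2 gave 2 higher each time, in place of 4, and 0 to 1 lower. The inhibitor effect ranged from 3 to 5 higher and 0 to 1 lower for CSB_KO minus WT, and from 4 to 5 higher for the STK19 knockouts minus WT. Fewer samples enter these fits.

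The replicate block left all 189 tested member values on the same side of the threshold. No label pairs the numbers, and same-numbered samples of 1 line correlated with a median r of 0.0156 in their deviations from the group means (8 of 180 pairs over 0.1), so the samples were treated as sharing only a number. As a hint from the data and not the design, 44 of 72 samples correlated best with their own number, where an even share over 3 numbers is 24. Library size alone moved the median of all genes by more than 0.1 on the log2 scale in 15 of 35 comparisons (from -0.37 to 0.15) and the share of higher calls by over 10 points in 14. That share went from 53.8% to 33.4% at 3 h in WT, from 48.6% to 36.3% at 20 h in DMSO in CSB_KO, from 49.1% to 33.3% for CSB_KO against WT at 20 h and from 46.0% to 27.2% for the difference in change. The number of all genes called at 4 h with inhibitor in WT, 411, ran from 2 to 851 over the alternatives; the cause was not tested.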
